A study of Mus musculus with 12 samples.

Results

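The proteasome genes of mouse liver were followed across all 12 RNA-seq libraries of the series. They were the rows of the count table whose symbol began with PSMA, PSMB, PSMC, PSMD, PSME or PSMG and a number, without rows marked as pseudogenes or opposite-strand transcripts, and 50 of the 56441 genes in the table met that rule. By role they were 7 alpha and 7 beta genes of the core particle, 3 immunoproteasome genes, 6 ATPase and 11 non-ATPase genes of the regulatory particle, 5 activator genes, 7 assembly chaperones, 2 core genes known from testis or thymus and 2 interacting proteins that share the name. For 48 of them the counts were high enough to test. Psmb11, the core gene of thymic epithelium, was at 0 counts in every library, and Psmc3ip, a meiotic recombination factor that only shares the name, held 2 to 12 counts.

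Livers came from 2 mouse models, each with 3 libraries of a control group and 3 of a treated group. C57BL/6 mice were injected in the tail vein at 6 to 8 weeks of age with AAV8-vector or AAV8-FH, which carries fumarate hydratase, and were fasted for 24 h after 1 month. The mutant ob/ob mice, which lack working leptin and become obese, received the same AAV8-vector or AAV8-FH at the same age and were kept on a high-fat diet (HFD) for 1 month. All 4 groups therefore carried an AAV8 virus, which is described as liver-specific with no promoter named, and the 2 models differed in genotype, diet and fasting together.

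The proteasome degrades proteins that carry a ubiquitin chain. Its core particle is a barrel whose outer alpha rings form the gate and whose inner beta rings cut the substrate, where Psmb5, Psmb6 and Psmb7 hold the cutting sites. The regulatory particle caps the barrel: a ring of ATPases unfolds the substrate, and non-ATPase subunits bind and remove ubiquitin. Interferon replaces the catalytic beta subunits by Psmb8, Psmb9 and Psmb10, and the transcription factor NRF1 (gene Nfe2l1) raises most of these genes together through antioxidant response elements when proteasome activity falls short.

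The delivered gene followed the labels. Fh1 lay at 238, 311 and 408 CPM (read counts relative to the library total, here scaled by TMM factors, which place the median gene near no change) in the fasted vector libraries and at 721, 792 and 926 CPM with FH, and ob/ob livers went from 106 to 142 CPM to 616 to 802 CPM. Libraries held 12231828 to 14884323 counts with the vector and 19107050 to 25873379 with FH. The 10 hepatocyte markers were all detected in every group. Xist had 2242 to 4992 counts in the ob/ob FH group, where Y-linked genes had 0, against 1 to 24 and 2304 to 5181 in the other 9 libraries, so in the ob/ob comparison FH and sex markers cannot be told apart. Replicate 2 of the ob/ob vector group was unlike its partners, at 78.8 and 119 chi-square units per gene from replicates 1 and 3, which were 22.4 apart from each other. Total counts of called proteasome genes are given with and without it. Counts by role, marker or list, and counts shared by both models, include it. Single genes are given without it where leaving it out ended an ob/ob FH call, and some where it moved the value. Whether each library is its own mouse is not stated, and p-values cover only library-to-library spread, which may be technical. In bulk RNA, fewer cells of a type and less RNA per cell cannot be told apart.

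The scaling decides the sign of many single-gene changes below. Over all 15228 genes tested, the median log2 change with FH was -0.044 in fasted and -0.011 in ob/ob livers with TMM factors, and -0.71 and -0.63 when CPM was taken on library totals. Changes are therefore given relative to the median gene, with the value on library totals beside most of them, and ratios between proteasome genes within a library, which no scaling can move, are given first.

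Promoters are shown for 5 genes on which the results below turn. RefSeq windows from 250 bases before to 50 bases after the start site (mouse build GRCm38.p6) were found by symbol for 42 of the 50 genes. Capitals mark the core of the antioxidant response element (TGACNNNGC), the CCAAT box (CCAAT) and the core of the interferon-stimulated response element (named ISRE), each searched on both strands, and these motifs do not contain one another. Psmb5, the chymotrypsin-like catalytic subunit, rose with FH in both models, and its window is chr14:54617946-54618245 on the minus strand. Psmc5, an ATPase that also rose in both, has the window chr11:106255935-106256234 on the plus strand. Psmc6, the ATPase that fell in both, has the window chr14:45329574-45329873 on the plus strand. Psme4, the activator whose response differed between the models, has the window chr11:30771525-30771824 on the plus strand. Psmb9, an immunoproteasome subunit, has the window chr17:34187281-34187580 on the minus strand.
Psmb5: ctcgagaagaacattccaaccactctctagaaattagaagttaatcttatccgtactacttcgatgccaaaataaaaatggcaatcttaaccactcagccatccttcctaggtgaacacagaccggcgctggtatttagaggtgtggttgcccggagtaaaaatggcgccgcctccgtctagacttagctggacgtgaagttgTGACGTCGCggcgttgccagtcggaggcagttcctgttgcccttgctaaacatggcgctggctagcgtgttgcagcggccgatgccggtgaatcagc
Psmc5: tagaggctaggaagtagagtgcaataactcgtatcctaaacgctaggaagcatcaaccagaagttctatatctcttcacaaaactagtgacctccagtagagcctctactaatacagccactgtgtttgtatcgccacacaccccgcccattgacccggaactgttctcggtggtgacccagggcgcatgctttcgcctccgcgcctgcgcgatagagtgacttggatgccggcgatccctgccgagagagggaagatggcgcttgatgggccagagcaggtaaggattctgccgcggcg
Psmc6: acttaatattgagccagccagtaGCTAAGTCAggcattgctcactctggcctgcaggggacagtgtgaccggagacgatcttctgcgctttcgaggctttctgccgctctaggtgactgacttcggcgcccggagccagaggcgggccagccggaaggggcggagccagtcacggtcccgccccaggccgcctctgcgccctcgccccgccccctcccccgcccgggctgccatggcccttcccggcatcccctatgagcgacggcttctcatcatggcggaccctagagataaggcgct
Psme4: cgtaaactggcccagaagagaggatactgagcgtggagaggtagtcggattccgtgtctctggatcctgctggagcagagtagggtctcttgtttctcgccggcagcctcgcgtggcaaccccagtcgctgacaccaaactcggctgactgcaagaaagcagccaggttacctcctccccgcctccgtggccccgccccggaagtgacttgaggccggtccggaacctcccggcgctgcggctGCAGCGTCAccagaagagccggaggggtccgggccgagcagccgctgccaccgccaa
Psmb9: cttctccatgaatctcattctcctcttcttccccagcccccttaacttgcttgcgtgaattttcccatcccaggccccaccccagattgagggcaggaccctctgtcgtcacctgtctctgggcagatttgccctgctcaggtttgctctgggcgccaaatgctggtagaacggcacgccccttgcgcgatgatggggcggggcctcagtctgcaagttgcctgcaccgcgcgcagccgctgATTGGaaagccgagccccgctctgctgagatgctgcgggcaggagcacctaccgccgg

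An antioxidant response element core began 47 bases before the start site of Psmb5, 227 bases before that of Psmc6 and 7 bases before that of Psme4, and none was found in the window of Psmc5. It was found in 6 of the 42 windows (14.3%: Psmb5, Psmb6, Psmc6, Psmd9, Psmd12 and Psme4), against 14.0% of 27025 genes in the RefSeq table. The CCAAT box was in 16 of 42 (38.1%, against 41.1% of all genes), and in 5 of the 7 alpha genes. The interferon-stimulated core was in 5 of 42 (11.9%, against 3.99%), namely Psmb3, Psmd4, Psmd9, Psme1 and Psmg4. The GC box (GGGCGG, not in capitals above) was in 24 of 42 (57.1%, against 38.2%). The Psmb9 window overlaps that of Tap1, the peptide transporter gene on the other strand, over 275 of its 300 bases, with start sites 226 bases apart. A match describes these letters only.

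Within each library, the make-up of the proteasome transcripts shifted with FH in the same way in both models: ATPase, non-ATPase and beta genes gained on the alpha genes, and Psmc6 lost ground to the other ATPases. Summed counts of the 6 ATPase genes over those of the 7 alpha genes were 0.583, 0.772 and 0.601 in fasted vector replicates 1 to 3, and 1.12, 1.06 and 1.06 with FH. In the ob/ob livers the ratio was 0.643, 0.620 and 0.704 with the vector and 0.988, 1.07 and 1.02 with FH. Every FH library lay above every vector library of its model.

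The non-ATPase subunits also gained on the alpha genes. Their ratio was 0.889, 1.19 and 0.928 with the vector and 1.90, 1.85 and 1.75 with FH in fasted livers, and 1.13, 1.02 and 1.32 against 1.83, 2.05 and 1.88 in ob/ob livers. The beta genes, which sit in the same barrel as the alpha genes, gained as well: their ratio to the alpha genes was 0.667 to 0.739 with the vector and 1.04 to 1.08 with FH in fasted livers, and 0.692 to 0.763 against 1.01 to 1.02 in ob/ob livers. None of these groups overlapped between vector and FH. With 3 libraries against 3, an exact two-sided permutation test cannot go below p = 0.10, so no p is attached to the ratios.

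**Figure D1:**
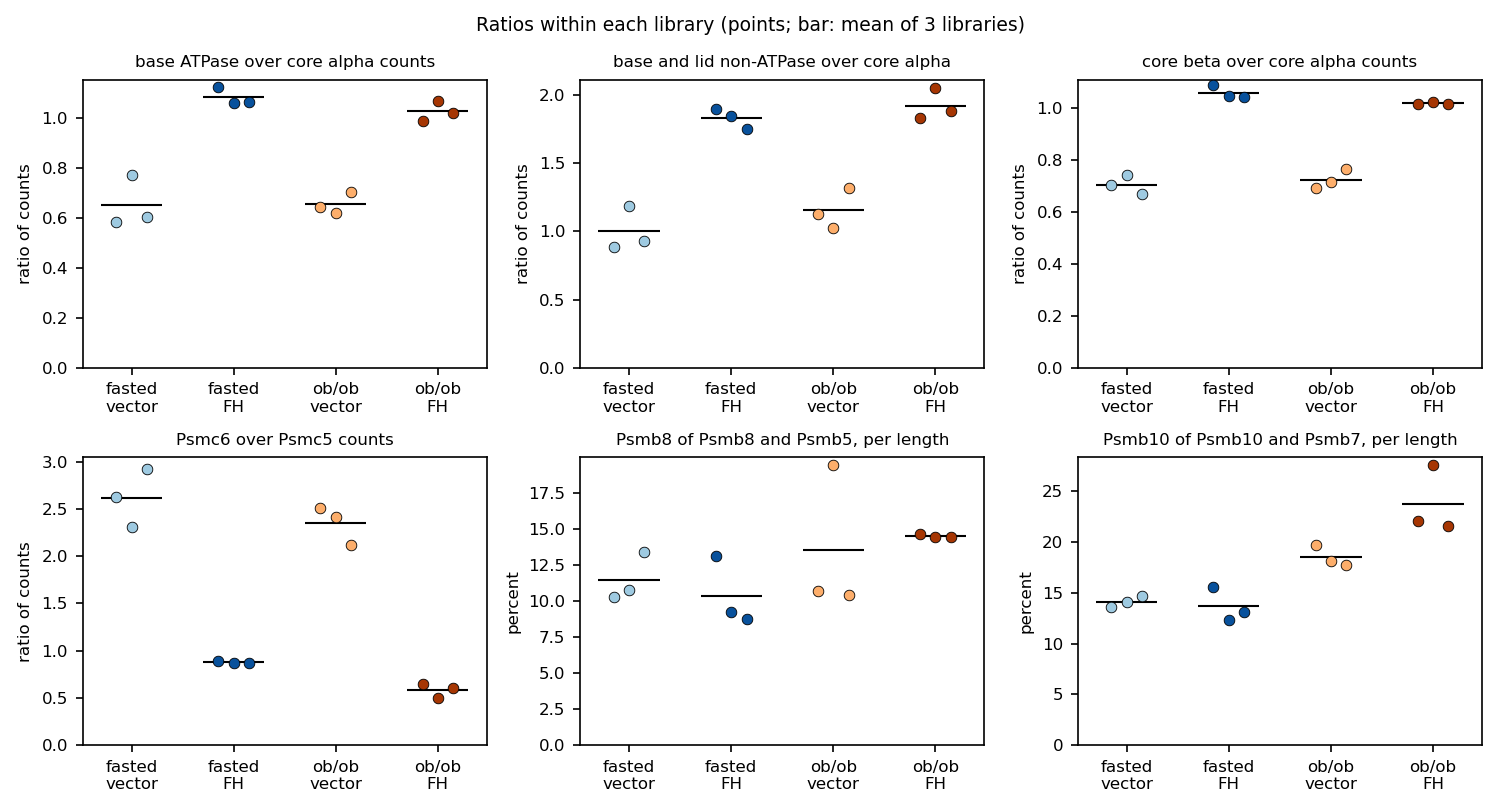
Ratios within each of the 12 libraries (points, with a bar at the mean of 3), as ratios of summed counts in 4 panels and as percent of a catalytic pair per transcript length in 2 panels. ATPase, non-ATPase and beta over alpha lie at 0.583 to 1.32 with the vector and 0.988 to 2.05 with FH without overlap within a model, Psmc6 over Psmc5 drops from 2.12 to 2.93 with the vector to 0.497 to 0.887 with FH, and the Psmb8 shares overlap. Psmc5 was the ATPase that rose most with FH in both models.

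Psmc6 stood apart from the ring it belongs to. For each count of Psmc5, another ATPase of the ring, Psmc6 had 2.63, 2.31 and 2.93 in fasted livers with the vector and 0.887, 0.872 and 0.866 with FH. Psmc5 was the ATPase that rose most with FH in both models, so a ratio to another ring gene would fall less. In the ob/ob livers there were 2.51, 2.41 and 2.12 with the vector and 0.648, 0.497 and 0.600 with FH. Psmc6 went from 22.8% to 27.7% of all ATPase counts to 11.2% to 11.7% in the fasted livers, and from 23.2% to 26.2% to 7.49% to 9.32% in the ob/ob livers. Without Psmc6, the ATPase to alpha ratio went from 0.487 ± 0.0945 (SD, n = 3) to 0.958 ± 0.0303 in fasted and from 0.493 ± 0.0425 to 0.939 ± 0.0464 in ob/ob livers.

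As a share of all counts, proteasome transcripts did not grow. With the vector, the 50 genes together took 0.486% to 0.594% of a fasted library, and with FH 0.428% to 0.497%, ranges that overlap. They took 0.440% to 0.492% in the ob/ob vector libraries and 0.390% to 0.396% with FH, all below the vector libraries.

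What FH did to single genes was asked first in the fasted livers. Relative to the median gene, most of the regulatory particle and the catalytic core rose by up to 2.38-fold, the alpha genes did not, and Psmc6, Psmd10 and Psma7 fell. With edgeR's quasi-likelihood test at an adjusted p under 0.05 (Benjamini-Hochberg over all genes), 28 of the 48 genes were called higher, where 27.4% of all genes were, and 3 were called lower, where 27.6% were. The shares over all genes, here and below, were not matched for expression level. The median log2 change of the 48 was 0.57. On library totals 4 were called higher (7.14% of all genes) and 18 lower (55.8%), and the median was -0.10.

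In the ob/ob livers 30 of the 48 were called higher (25.8% of all genes) and 1, Psmc6, lower (27.9%), with a median of 0.51. Without ob/ob vector replicate 2, 27 were called higher (24.3% of all genes) and 1 lower (25.6%), and those lost were Psmb3, Psmb6 and Psmb9. On library totals 2 were called higher (6.82%) and 16 lower (53.3%), with a median of -0.11. Of the 48 genes, 25 were called higher in both models, 1 lower in both and 12 in neither, and none was called in opposite directions. The same joint counts were not taken over all genes, whose effects in the 2 models had a Pearson correlation of 0.73. These counts therefore do not set the proteasome genes apart from other genes. A further 3 genes were called higher in the fasted livers alone, 5 in the ob/ob livers alone and 2 lower in the fasted livers alone, which by itself shows no difference between the models.

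**Figure D2:**
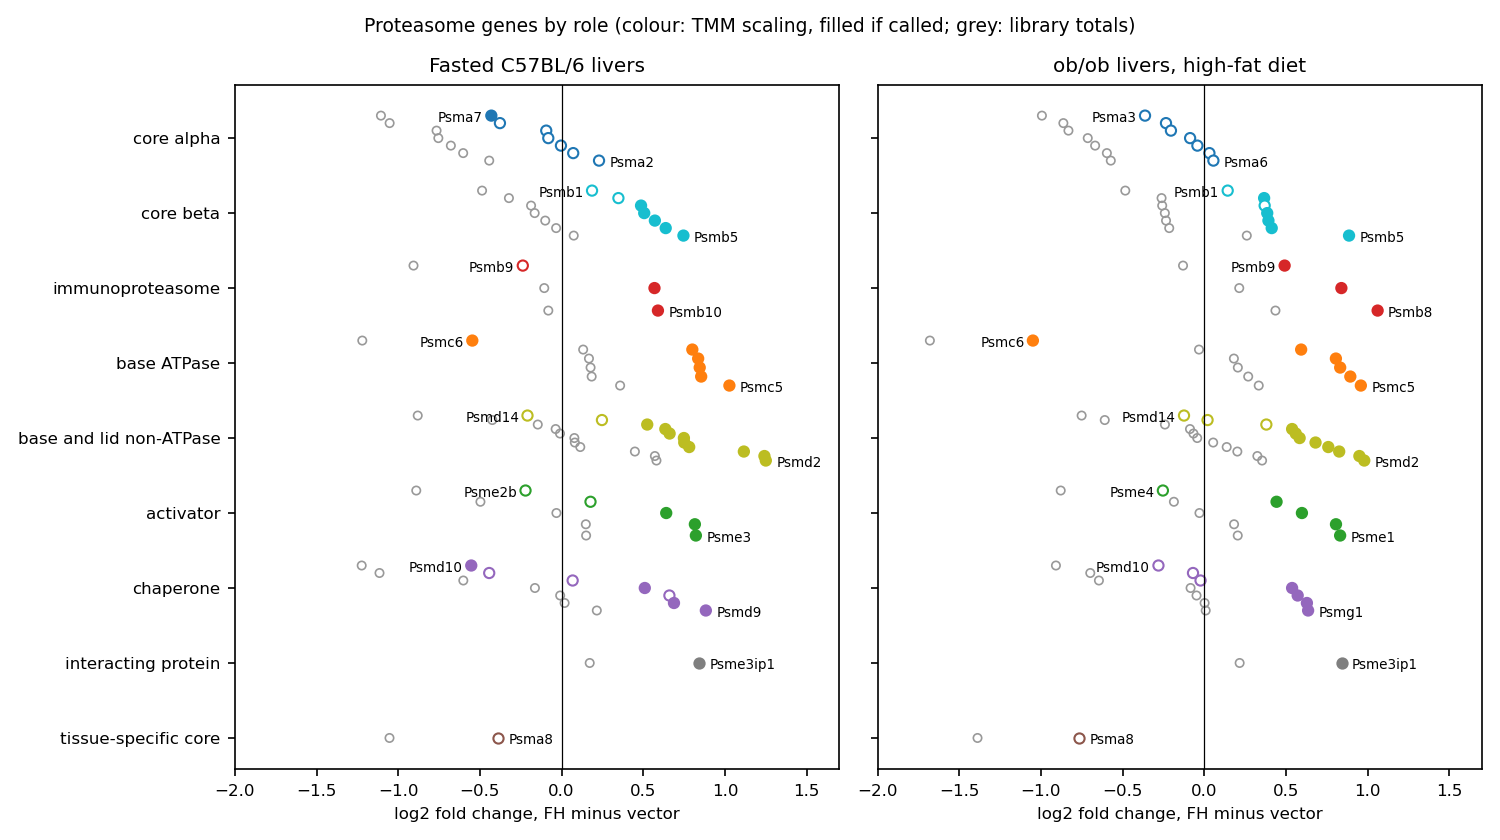
Log2 fold change, FH minus vector, of the 48 tested genes by role (rows) in fasted and ob/ob livers; coloured points use TMM scaling and are filled when called at an adjusted p under 0.05, and grey rings give the same genes on library totals. Medians with TMM scaling run from -0.082 for alpha genes to 0.84 for ATPases in fasted livers, and Psmc6 lies at -0.55 and -1.05, away from the other ATPases.

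The alpha genes, which build the outer rings and the gate, showed almost no rise. In fasted livers none of the 7 was called higher and 1, Psma7, was called lower, with a median of -0.082; in ob/ob livers none was called, with a median of -0.087. On library totals all 7 were called lower in both models, with medians of -0.75 and -0.71. Psma7 lay at 284, 192 and 234 CPM in the fasted vector libraries and at 160, 166 and 200 CPM with FH. The ranges overlapped, and its change of -0.43 (SE 0.15, edgeR adjusted p = 0.0282; -1.11 on library totals) missed the threshold when 1 of 4 libraries was dropped. It stood at -0.33 (adjusted p = 0.0768) and -0.42 (0.0652) on dropping vector replicate 1 or 3, and at -0.36 (0.108) and -0.38 (0.0967) on dropping FH replicate 1 or 2. In ob/ob livers Psma7 changed by -0.23 (adjusted p = 0.21). The other alpha genes ranged from -0.38 (Psma3) to 0.23 (Psma2) in fasted and from -0.36 (Psma3) to 0.056 (Psma6) in ob/ob livers. Psma3, not called in the main fit, was called lower in both models by DESeq2 (-0.42, adjusted p = 0.0217, and -0.38, 0.0395). The edgeR fit of only the 2 groups compared also called it, at -0.42 (adjusted p = 0.0428) and -0.43 (0.0269).

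Of the 7 beta genes of the standard core, 5 were called higher in each model, with medians of 0.51 and 0.39, and none lower; on library totals none was called higher and the medians were -0.165 and -0.24. Psmb5, whose promoter is shown above, lay at 44.6, 31.5 and 30.6 CPM in the fasted vector libraries and at 50.1, 54.3 and 74.3 CPM with FH. The ob/ob libraries held it at 29.7, 20.8 and 28.9 CPM and at 51.9, 45.7 and 49.1 CPM. All FH libraries were above all vector libraries of their model, and the rises were 0.75 (SE 0.19, edgeR adjusted p = 0.00428) and 0.89 (SE 0.19, adjusted p = 0.00145), against 0.074 and 0.26 on library totals, where neither was called. Without ob/ob vector replicate 2 the ob/ob rise was 0.75 (0.00351).

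Psmb6, the caspase-like subunit, rose by 0.51 (edgeR adjusted p = 0.0104) and 0.41 (0.0299), and on library totals it stood at -0.165 and -0.21; without ob/ob vector replicate 1 or 2 or ob/ob FH replicate 1 or 3 the ob/ob call was lost, at 0.32 to 0.45 (adjusted p 0.0514 to 0.133). Psmb7, the trypsin-like subunit, rose by 0.64 (0.000324) and 0.39 (0.00977), against -0.034 and -0.24 on library totals, and its ob/ob call was lost without FH replicate 1 (0.30, 0.0685). The structural subunits Psmb2 and Psmb4 rose by 0.49 and 0.57 in the fasted livers. In ob/ob livers Psmb2 rose by 0.39, lost without FH replicate 1 (0.32, 0.0667), and Psmb3 by 0.37 (0.0496), lost without any 1 of the 6 ob/ob libraries or fasted FH replicate 1 or 2 (0.27 to 0.42, adjusted p 0.053 to 0.208). Psmb4 stood at 0.37 (adjusted p = 0.0508) there. Psmb1 was not called in either model, at 0.19 and 0.14. All of these were below 0 on library totals.

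In the base ATPase ring 5 genes were called higher and 1 lower in each model, with medians of 0.84 and 0.82 (0.17 and 0.19 on library totals). Psmc5 lay at 84.9, 78.5 and 65.9 CPM in the fasted vector libraries and at 154, 140 and 174 CPM with FH. It lay at 58.0, 56.1 and 63.5 CPM in the ob/ob vector libraries and at 121, 117 and 107 CPM with FH. The groups were far apart in both models, the rises were 1.03 (SE 0.13, edgeR adjusted p = 2.74e-05) and 0.96 (SE 0.13, 4.57e-05), and on library totals they remained called at 0.36 (0.0149) and 0.33 (0.0223). Psmc1, Psmc2, Psmc3 and Psmc4, which complete the ring with Psmc6, rose by 0.80 to 0.85 in the fasted and by 0.59 to 0.89 in the ob/ob livers; on library totals none of the 4 was called, at 0.13 to 0.18 and -0.032 to 0.27.

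Psmc6 went the other way under both scalings. It lay at 223, 181 and 193 CPM in the fasted vector libraries and at 137, 122 and 151 CPM with FH. In the ob/ob livers it lay at 146, 135 and 135 CPM and at 78.4, 58.4 and 64.1 CPM. Every FH library was below every vector library of its model. The change was -0.55 (SE 0.14, edgeR adjusted p = 0.00435) in fasted and -1.05 (SE 0.14, 4.17e-05) in ob/ob livers, where it was -1.05 without vector replicate 2, and on library totals it was -1.22 and -1.68. The 2 effects differed by -0.50 (SE 0.20), which did not pass the test of the difference (adjusted p = 0.126).

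The non-ATPase subunits of base and lid held the largest single rises of the fasted livers. In fasted livers 9 of 11 were called higher and in ob/ob livers 8 of 11, with medians of 0.75 and 0.58 (0.078 and -0.043 on library totals) and none lower. Psmd2, a base scaffold that docks shuttle factors carrying ubiquitinated proteins, lay at 151, 171 and 140 CPM in the fasted vector libraries and at 347, 373 and 377 CPM with FH. With ob/ob mice it lay at 141, 127 and 134 CPM and at 269, 282 and 242 CPM. No FH library came near a vector library. The rises of 1.25 (SE 0.12, edgeR adjusted p = 4.74e-06) and 0.98 (SE 0.12, 2.51e-05) stayed called on library totals, at 0.58 (0.000573) and 0.35 (0.0139).

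Psmd1, the other large scaffold, rose by 1.12 (SE 0.15, edgeR adjusted p = 5.11e-05) and 0.95 (SE 0.15, 0.000174), and Psmd3, a lid subunit, by 1.24 (SE 0.12, 4.62e-06) and 0.83 (SE 0.12, 8.48e-05). On library totals both were called in the fasted livers, at 0.45 (0.0114) and 0.57 (0.000639), and not in the ob/ob livers, at 0.32 (0.0534) and 0.20 (0.131). The ubiquitin receptor Psmd4 rose by 0.75 (0.00153) and 0.68 (0.00309), against 0.081 and 0.054 on library totals. Psmd14, the deubiquitinase that strips the chain from the substrate, did not follow. It lay at 91.0 to 125 CPM with the vector and at 79.7 to 101 CPM with FH in fasted livers, and at 65.6 to 85.2 and 69.1 to 77.1 CPM in ob/ob livers, ranges that overlap, with changes of -0.21 (adjusted p = 0.257) and -0.12 (0.511).

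The lid subunit Psmd6 was not called either, at 0.25 and 0.020. Psmd7, the partner of Psmd14 in the lid, rose by 0.52 and 0.54, and Psmd11, Psmd12 and Psmd13 rose by 0.63 to 0.78 in fasted and 0.56 to 0.76 in ob/ob livers. Psmd8 rose by 0.66 in fasted livers (edgeR adjusted p = 0.00889) and stood at 0.38 (0.102) in ob/ob livers, at 0.18 (0.321) without ob/ob vector replicate 2 and, called, at 0.60 (0.0153) without ob/ob vector replicate 3. On library totals these 5 lay between -0.15 and 0.11 in fasted and between -0.24 and 0.14 in ob/ob livers, none of them called, while Psmd6 and Psmd14 were called lower in both.

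**Figure D3:**
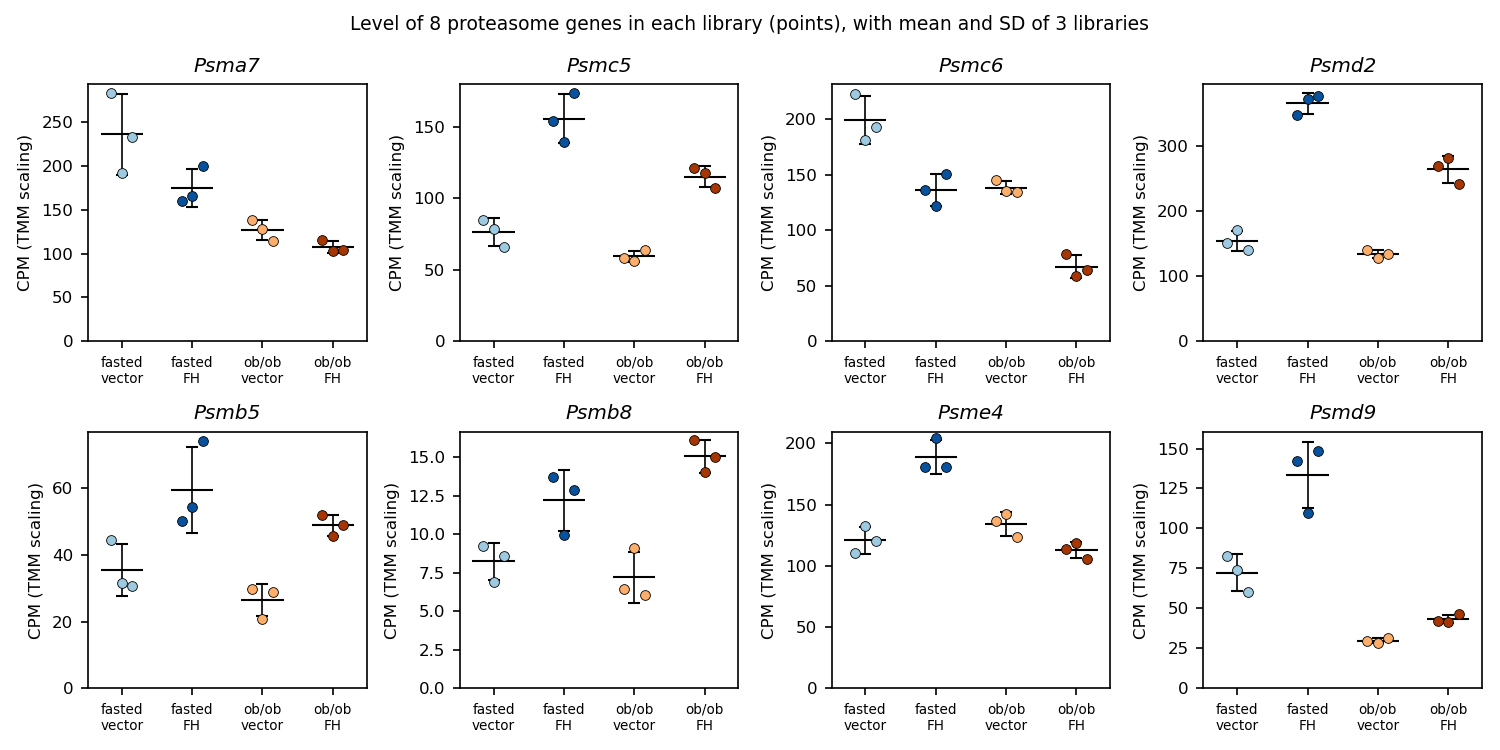
Level of 8 proteasome genes in each library (points, CPM on TMM-scaled totals) with mean and SD of the 3 libraries of each group. Psmc5 and Psmd2 are higher with FH in both models, Psmc6 is lower in both (181 to 223 against 122 to 151 CPM, and 135 to 146 against 58.4 to 78.4 CPM), and Psme4 is higher with FH in fasted livers alone, at 181 to 205 CPM; on library totals Psme4 is not called there, at -0.032.

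The immunoproteasome genes were low throughout. Psmb8 lay at 9.22, 6.88 and 8.57 CPM in the fasted vector libraries and at 13.7, 9.96 and 12.9 CPM with FH. The ob/ob levels were 6.44, 9.09 and 6.07 CPM with the vector and 16.1, 14 and 15 CPM with FH. The FH libraries were above the vector libraries in both models, by 0.57 (SE 0.19, edgeR adjusted p = 0.0197) and 1.06 (SE 0.185, 0.000344); on library totals these were -0.11 and 0.44 and neither was called. The ob/ob rise was 1.28 (5.35e-05) without vector replicate 2. On dropping vector replicate 2 the fasted rise lost its call (0.47, adjusted p = 0.071), as it did on dropping FH replicate 1 (0.48, 0.0711) or 3 (0.53, 0.0572). Psmb10 rose by 0.59 (0.00358) and 0.84 (0.000261), against -0.081 and 0.21 on library totals.

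Psmb9 lay at 11 to 13.2 CPM with the vector and at 8.83 to 11.6 CPM with FH in fasted livers, a change of -0.24 (edgeR adjusted p = 0.24; -0.91 and called on library totals). In ob/ob livers it lay at 9.67 to 14.4 and 16.4 to 18.3 CPM, a rise of 0.49 (0.0199) that stood at 0.35 (0.0706) without vector replicate 2, at 0.47 (0.06) without FH replicate 2, at 0.46 (0.0646) without FH replicate 3 and at -0.13 on library totals. The difference of the 2 effects was 0.73 (SE 0.23, adjusted p = 0.0684; 0.58 and 0.0979 without that library), and DESeq2 called it, at 0.76 (0.0411).

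Whether the immunoproteasome gained on the standard core can be read within a library, per transcript length. Psmb8 made up 10.2% to 13.4% of Psmb8 and Psmb5 in fasted vector libraries and 8.73% to 13.1% with FH, and 10.4% to 19.4% (10.4% to 10.7% without vector replicate 2) against 14.5% to 14.6% in ob/ob livers. Psmb9 made up 3.60% to 5.98% and 2.55% to 3.28% of Psmb9 and Psmb6 in the fasted groups, without overlap, while ob/ob libraries gave overlapping shares, 5.13% to 7% with the vector and 5.67% to 7.50% with FH. Psmb10 made up 13.6% to 14.7% and 12.3% to 15.6% of Psmb10 and Psmb7 in the fasted groups, while ob/ob libraries gave 17.8% to 19.7% with the vector and 21.6% to 27.6% with FH, without overlap. So the share of the interferon-inducible form was higher with FH for Psmb10 in ob/ob livers, lower for Psmb9 in fasted livers, and overlapped in the other cases, apart from Psmb8 in ob/ob livers once vector replicate 2 was dropped.

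Markers of macrophages and endothelium, cells that also carry these genes, mostly fell with FH in fasted livers and, with TMM scaling, mostly rose in ob/ob livers. Over all genes, 27.4% were called higher and 27.6% lower in fasted livers, and 25.8% and 27.9% in ob/ob livers. The shares on library totals were 7.14% and 55.8% in fasted livers, and 6.82% and 53.3% in ob/ob livers. Of 12 Kupffer cell and macrophage markers 10 were called lower in fasted livers and 9 higher in ob/ob livers; their summed level went from 499 to 678 down to 259 to 291 CPM and from 358 to 559 up to 732 to 1011 CPM. All 10 sinusoidal endothelial markers were called lower in fasted livers, while 6 were called higher and 1 lower in ob/ob livers, with sums of 447 to 543 and 215 to 264 CPM, and of 285 to 380 and 436 to 513 CPM. T and NK lymphocyte markers summed to 3.69 to 6.82 and 2.47 to 4.50 CPM in fasted livers, and to 4.40 to 6.10 CPM with the vector and 7.15 to 13.5 CPM with FH in ob/ob livers, with none of the 8 at 0 throughout a group and 3 of 7 tested called higher there. Neutrophil markers summed to 7.03 to 8.57 and 1.18 to 2.83 CPM and to 10.4 to 12.5 and 11.1 to 18.1 CPM, with Ly6g at 0 outside the ob/ob FH group. Stellate cell markers were lower for 3 of 8 in fasted livers and higher for 4 and lower for 1 in ob/ob livers, B and plasma cell markers were lower for 1 of 6 in each, and none of 5 cholangiocyte markers was called. On library totals 4 of the 12 macrophage markers were called higher and 1 lower in ob/ob livers, 2 of the 10 endothelial markers higher and 4 lower, 1 stellate cell marker higher and 2 lower, and no T and NK marker higher. Hepatocyte markers were called higher for 9 of 10 in fasted and 8 of 10 in ob/ob livers, and for 6 of 10 in each on library totals. With TMM scaling their sum went from 61573 to 88033 up to 194410 to 206410 CPM in fasted livers. In ob/ob livers it went from 53418 to 65872 up to 151400 to 183480 CPM. The rise was smaller on library totals, from 75733 to 98819 up to 140190 to 151030 CPM in fasted livers. In ob/ob livers the sum on library totals went from 73215 to 86811 up to 134500 to 151130 CPM. The part of these cells in the proteasome results was not tested.

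Of the interferon pathway around them, the class I antigen processing list held 7 genes called higher and 2 lower of 15 in fasted livers and 10 higher and 3 lower in ob/ob livers (4 and 5, and 4 and 3, on library totals). With TMM scaling, this count and those of the lists below stand beside 27.4% of all genes called higher and 27.6% lower in fasted livers. In ob/ob livers the shares of all genes were 25.8% and 27.9%. On library totals they were 7.14% and 55.8% in fasted livers, and 6.82% and 53.3% in ob/ob livers. Irf1, a transcription factor that drives Psmb9 and Tap1, stood at -0.054 (edgeR adjusted p = 0.794) and rose by 0.58 (0.00706), against -0.73 and -0.039 on library totals. Tap1, which shares its promoter window with Psmb9, stood at 0.28 (0.243) and rose by 0.98 (0.000992), against -0.38 and 0.37. The table does not state whether reads of Psmb9 and Tap1, which overlap on opposite strands, were separated.

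Among the activators, Psme1, the interferon-inducible cap subunit, lay at 45.5 to 74.3 CPM with the vector and 97.4 to 102 CPM with FH in fasted livers, and at 58.3 to 70 and 100.3 to 127 CPM in ob/ob livers. It rose by 0.82 (edgeR adjusted p = 0.00107) and 0.83 (0.000961), against 0.15 and 0.20 on library totals. Its partner Psme2, which is 99.4% identical over its matched length to Psme2b so that reads of the 2 may be split, stood at 0.18 (0.361) and rose by 0.44 (0.0304), against -0.50 and -0.19; the rise was not called without ob/ob FH replicate 1 or 3 or ob/ob vector replicate 3 (0.37 to 0.45, adjusted p 0.0644 to 0.115). Psme2b stood at -0.22 (0.388) and rose by 0.60 (0.0256), against -0.89 and -0.030, and that rise was not called without any 1 ob/ob FH library or ob/ob vector replicate 3 (0.46 to 0.62, adjusted p 0.0527 to 0.0937). Psme3, the nuclear cap, rose by 0.82 (4.63e-05) and 0.81 (5.24e-05), against 0.15 and 0.18, and its binding partner Psme3ip1 by 0.84 in both models, against 0.17 and 0.22.

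Psme4, the nuclear activator that caps the core without ATP, was the one gene of the 48 whose FH response differed between the models by edgeR's test (DESeq2 also called Psmb9). It lay at 110, 132 and 120 CPM in the fasted vector libraries and at 181, 205 and 181 CPM with FH, a rise of 0.64 (SE 0.12, edgeR adjusted p = 0.000497). In ob/ob livers it lay at 137, 142 and 124 CPM and at 114, 118 and 105 CPM, and its change of -0.25 (SE 0.12, 0.0842) did not pass, although DESeq2 called it (-0.27, 0.047). So the FH libraries were above the vector libraries in one model and below them in the other. The difference of the effects was -0.89 (SE 0.17, adjusted p = 0.00733), -0.85 (0.0109) on library totals, and -0.85 (0.00676) once ob/ob vector replicate 2 was dropped. On library totals the 2 effects themselves were -0.032 (0.828) and -0.88 (3.5e-05). Over all genes 3.66% were called lower and 4.77% higher in this difference, and of the 48 proteasome genes 1 and 0 were, as on library totals (2.37% and 4.74% of all genes).

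**Figure D4:**
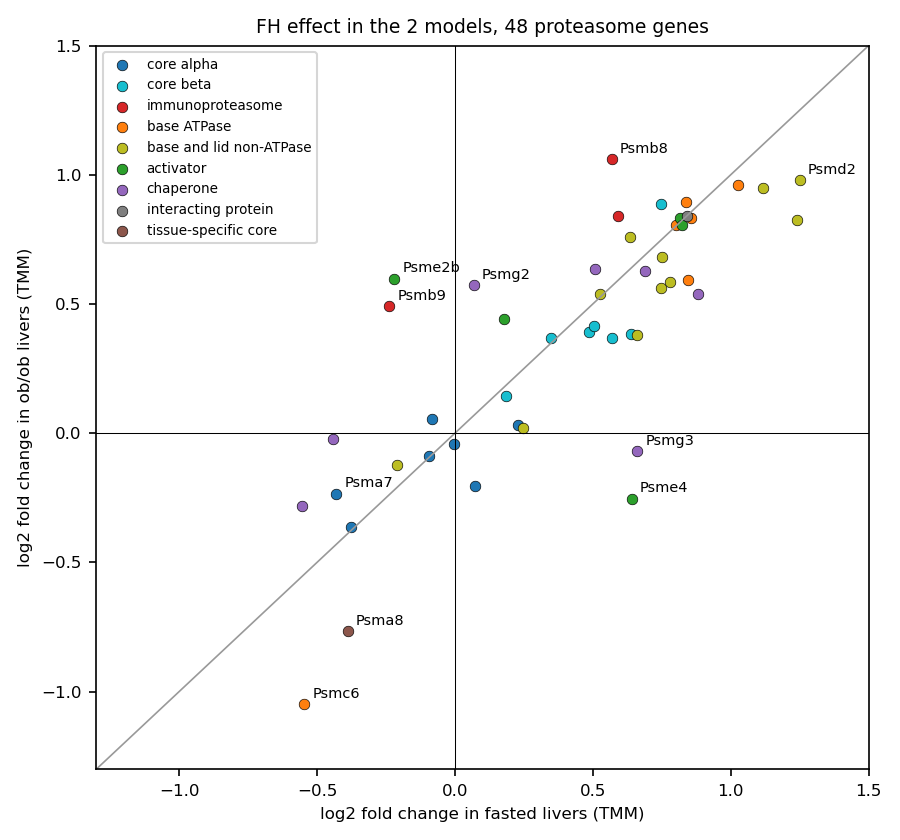
Log2 fold change with FH (TMM scaling) in fasted livers (x axis) against ob/ob livers (y axis) for the 48 tested genes, coloured by role, with the line of equal effects. Most genes lie near the line, Psmc6 lies low in both, and Psme4 lies far below the line at 0.64 and -0.25.

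Across the 48 genes the effects in the 2 models, which share no library, had a Pearson correlation of 0.79 (Spearman 0.76), and over all 15228 genes it was 0.73 (0.72). Genes of one library share its depth and composition and are not independent, so these values describe the libraries. Among the assembly chaperones 3 of 7 were called higher and 1 lower in fasted and 4 higher in ob/ob livers (none higher and 3 lower in each on library totals). Psmd9, which escorts base ATPases, rose by 0.88 (edgeR adjusted p = 0.000177) and 0.54 (0.00633), and Psmd5, another base chaperone, by 0.69 (0.00116) and 0.63 (0.00216), against 0.22 and -0.084 for Psmd9 and 0.018 and 0.0020 for Psmd5 on library totals.

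Psmd10, the base chaperone known as gankyrin, lay at 24.1, 15.6 and 16.2 CPM in the fasted vector libraries and at 11.9, 12.2 and 13.8 CPM with FH, and fell by 0.55 (edgeR adjusted p = 0.0173; -1.22 on library totals). Dropping vector replicate 1 (-0.38, 0.0589), or FH replicate 1 (-0.50, 0.0603) or 2 (-0.52, 0.0563), removed the call, and in ob/ob livers it stood at -0.28 (0.191). On library totals Psmd10 was called lower in ob/ob livers too, at -0.91 (0.000534). Of the core chaperones, Psmg1 rose by 0.51 (0.00568) and 0.64 (0.00142), against -0.16 and 0.0086 on library totals. Psmg2 stood at 0.068 (0.699) and rose by 0.57 (0.00338), against -0.60 and -0.048. Psmg3, at 2.46 to 6.22 CPM, and Psmg4, at 2.74 to 6.46 CPM, were not called in either model with TMM scaling, while on library totals Psmg4 was called lower in both, at -1.11 (0.00196) and -0.645 (0.037), and Psmg3 in ob/ob livers, at -0.70 (0.0361). The fasted value of Psmg3, 0.66 (0.0585), was called without fasted vector replicate 1, fasted FH replicate 2 or ob/ob vector replicate 2 (0.68 to 0.87, adjusted p 0.021 to 0.0441) and with the replicate block (0.64, 0.0368). Psma8, the core gene of testis, held 6 to 25 counts per library and was called on library totals alone, at -1.39 (0.0195) in ob/ob livers.

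Genes that act on the proteasome without sharing its name followed in part. Nfe2l1 lay at 89.9, 82.0 and 91.5 CPM in the fasted vector libraries and at 193, 161 and 161 CPM with FH, and in ob/ob livers at 110, 79.4 and 129 CPM and at 189, 206 and 185 CPM. It was higher in every FH library, by 0.97 (SE 0.16, edgeR adjusted p = 0.000215) and 0.87 (SE 0.16, 0.00051); on library totals this was 0.29 and 0.24 and not called. Of the 11 genes of the list on NRF1 activation 5 were called higher and 3 lower in fasted and 3 higher and 2 lower in ob/ob livers (1 and 3, and 2 and 5, on library totals). With TMM scaling, the ob/ob shares lie near or below those of all genes.

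Psmf1, an inhibitor of the core, rose by 1.18 (edgeR adjusted p = 7.36e-05) and 1.21 (6.17e-05), and stayed called on library totals at 0.52 and 0.59. The ubiquitin receptor Adrm1 rose by 0.93 (1.17e-05) and 0.46 (0.00195), against 0.25 and -0.16. Usp14, a deubiquitinase of the base, rose by 0.62 (0.000253) and 0.64 (0.00021), against -0.047 and 0.016. Uchl5, another deubiquitinase, rose by 0.39 (0.0251) in fasted livers, a call lost without fasted vector replicate 1 or 3, fasted FH replicate 3 or ob/ob FH replicate 1 or 3 (0.32 to 0.39, adjusted p 0.0512 to 0.0916) and by DESeq2 (0.0509), while library totals gave -0.28, and stood at -0.057 (0.743) in ob/ob livers. Sem1, a small lid subunit, stood at 0.34 (0.0991) and -0.14 (0.49), and Pomp, which matures the core, at 0.29 (0.102) and 0.13 (0.461). On library totals Pomp was called lower in both models, at -0.39 (0.0235) and -0.50 (0.00591). Uchl5, at -0.68 (0.000397), and Sem1, at -0.77 (0.0014), were called lower on library totals in ob/ob livers.

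Of these 11 partners 8 were called higher in fasted livers and 4 higher and 1 lower in ob/ob livers (2 higher and 3 lower, and 1 and 7, on library totals). Ecpas, which holds core and regulatory particle together, rose by 0.44 (edgeR adjusted p = 0.00662) and stood at -0.19 (0.189), and the difference of -0.63 was called (0.0356), though not without any 1 of 9 libraries (-0.50 to -0.69, adjusted p 0.0558 to 0.136). Its fasted rise was not called without fasted vector replicate 1 (0.30, 0.0562). Akirin2, which brings proteasomes into the nucleus and was picked out after its values were seen, rose by 0.82 (0.000348) and stood at 0.046 (0.802), with a difference of -0.77 (0.0331) that was not called without any 1 of 7 libraries (-0.69 to -0.81, adjusted p 0.0521 to 0.109). On library totals Ecpas stood at -0.24 and -0.81 and Akirin2 at 0.15 and -0.58, with differences of -0.58 (0.0631) and -0.73 (0.0333).

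Upstream, 10 of 13 tested genes that deliver substrates were called higher and 1 lower in fasted livers, and 11 and 1 in ob/ob livers (7 and 3, and 4 and 2, on library totals). Vcp, the ATPase that pulls ubiquitinated proteins out of membranes and complexes, lay at 132 to 162 CPM with the vector and 441 to 503 CPM with FH in fasted livers, and at 153 to 181 and 406 to 449 CPM in ob/ob livers. It was picked out after its values were seen, and it was called higher in both models under either scaling, by 1.7 (edgeR adjusted p = 1.64e-06) and 1.39 (3.09e-06), and by 1.03 and 0.76 on library totals. Of 12 ubiquitin and conjugating enzyme genes 6 were called higher and 1 lower in fasted and 5 and 1 in ob/ob livers (3 and 6 in each on library totals).

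The base composition of the transcripts went with the FH effect. Across the 48 genes, GC content of the principal transcript and log2 change had a Pearson correlation of 0.48 (Spearman 0.38) in fasted and 0.65 (0.54) in ob/ob livers, and without Psmc6 0.42 and 0.58 (Pearson, n = 47). Across the 31 alpha, beta, ATPase and non-ATPase genes, which make up the ratios by role above, it was 0.62 (0.52) and 0.70 (0.58). Over the 12747 tested genes with a transcript in the annotation it was 0.19 and 0.28. Expression level had a Spearman correlation with the log2 change of 0.47 and 0.22 over these 12747 genes. Across the 48 genes it was 0.17 and -0.11. For transcript length the Spearman values were -0.068 and -0.12 over the 12747 genes, and 0.40 and 0.17 across the 48. Psmc6 had the lowest GC content of the 50 genes, at 37.0%, although its promoter window is at 66.3%, and Psmd3 the highest, at 58.3%. The alpha genes lay at 39.4% to 51.6% and the beta genes at 44.7% to 56.6%. The non-ATPase genes lay at 43.2% to 58.3% and the ATPases other than Psmc6 at 48.7% to 55.1%. The ratios between these roles were not adjusted for GC content.

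The 12 proteasome genes in the lowest of 4 equal GC classes of all genes (32.8% to 45.5%) had median changes of -0.012 and -0.16, and the 36 others had medians of 0.58 or more per class in fasted and 0.54 or more in ob/ob livers. All genes of the same classes had medians of -0.31 and -0.43 in the lowest and of 0.15 to 0.28 and 0.11 to 0.36 in the 3 others. Single genes departed from these medians, among them Psma7, at 51.6% GC and -0.43 and -0.23, Psmg4, at 55.1% GC and -0.44 and -0.023, and in the lowest class Psmd12, at 44.3% GC and 0.78 and 0.58, and Psmd5, at 45.1% GC and 0.69 and 0.63. The points share their libraries and depth, and the part of base composition, expression level or transcript length in the result was not tested.

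**Figure D5:**
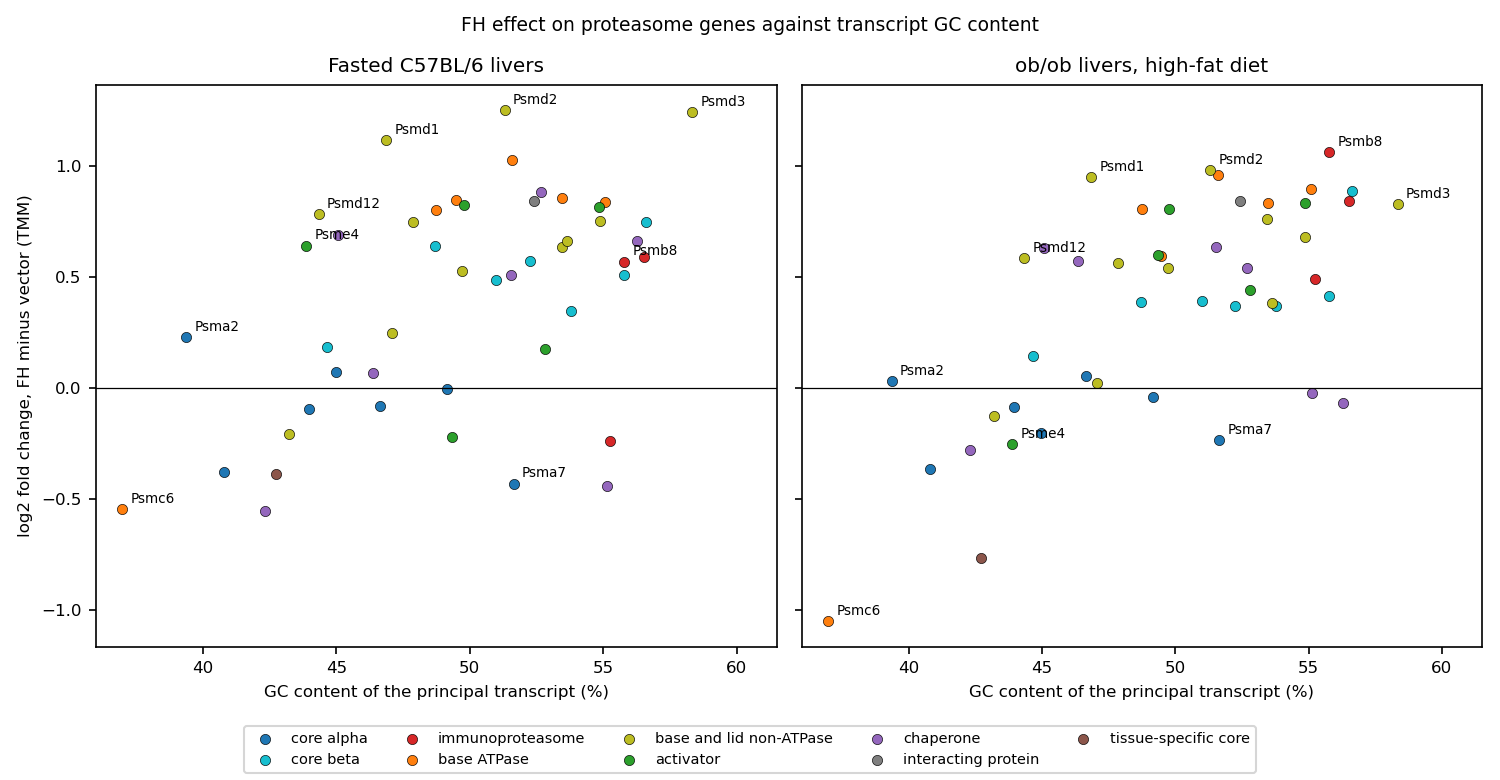
Log2 fold change with FH (TMM scaling, y axis) against GC content of the principal transcript in percent (x axis) for the 48 tested genes in fasted and ob/ob livers, coloured by role. Psmc6 lies lowest on the x axis at 37.0% with -0.55 and -1.05, and Psma7 lies at 51.6% with -0.43 and -0.23.

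The control groups were compared last, which sets the models side by side without FH. No proteasome gene was called higher in ob/ob than in fasted vector libraries (9.36% of all genes) and 15 were called lower (8.18%), with a median of -0.34. Without ob/ob vector replicate 2, 11 were called lower (9.66%); without fasted vector replicate 1, 8 were; and on the 6 libraries alone 4 were. On library totals, where the median of all genes was 0.21 against -0.00071, 4 were called higher (18%) and 6 lower (4.21%). This comparison shares its control libraries with both FH comparisons.

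Psmd9 differed most. It lay at 82.9, 74.0 and 60.3 CPM in fasted and at 29.7, 28.4 and 31.5 CPM in ob/ob vector libraries, which do not overlap, a change of -1.28 (SE 0.14, edgeR adjusted p = 0.000103; -1.07 on library totals, and -1.24 once ob/ob vector replicate 2 was dropped). Psma7 followed at -0.90 (0.00163; -0.69 on library totals), Psma6 at -0.78 (0.00488; -0.57) and Psmb4 at -0.71 (0.00571; -0.50), and these 3 were called lower under both scalings. Of the ATPases, Psmc1, Psmc2, Psmc3 and Psmc4 were at -0.41 to -0.59 and Psmc6 at -0.52 (0.0196), and of these 5 only Psmc3 (-0.37, 0.0385) was called on library totals. Psmd4, Psmd6, Psmd13, Psmg1, Psma5 and Psmb1 were the others, at -0.43 to -0.61. Several of these calls were marginal: when 1 of the 12 libraries was left out, Psmc2 and Psmg1 lost theirs in 10 fits and Psmc4 in 11 (adjusted p up to 0.165, 0.146 and 0.159), Psmd4 in 4, Psmb1 and Psmc1 in 3 and Psmc6 in 2. The immunoproteasome genes were not called with TMM scaling, at -0.19 to 0.26, and on library totals Psmb10 was called higher, at 0.47 (0.0404).

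Per length of transcript, the order of the levels placed core genes first in every group. In the fasted vector libraries Psma7 led at 259 ± 50.6 CPM per kilobase (SD, n = 3), before Psma6 at 241 ± 52.1, Psmb4 at 187 ± 34.7, Psmb6 at 176 ± 36.6 and Psmb3 at 156 ± 30.2, and each interval of mean ± SD overlapped that of the next gene in the order. With FH, Psmb4 led in the fasted libraries, at 278 ± 38.5, and Psmb6 in the ob/ob libraries, at 183 ± 17.3. Psmc6 moved from place 13 to 30 of 50 in fasted and from 15 to 34 in ob/ob livers. The catalytic Psmb5 lay at 39.6 ± 8.75 CPM per kilobase in fasted vector libraries, and its immunoproteasome counterpart Psmb8 at 5.05 ± 0.743.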

How the data were processed

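Raw counts per gene were deposited by the authors in 1 table of 56441 symbols and 12 libraries. Per the labels' protocols, RNA was extracted from liver with TRIzol and libraries were made with an Illumina stranded mRNA ligation kit. The submitters' processing notes name STAR 2.7.11a and build GRCm39; the sources used here do not say how reads were counted (tool, gene annotation, use of strand), so reads of overlapping antisense genes and near-identical copies may be shared.

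The counts were tested with edgeR 4.0.16 (quasi-likelihood, TMM factors, R 4.3.3) in 1 model of all 4 groups with 8 residual degrees of freedom. Genes passed filterByExpr (minimum count 10, minimum total 15), which kept 15228 of the 28566 genes with any count. P-values were adjusted by Benjamini-Hochberg over all tested genes and called under 0.05. FH was compared with vector within fasted and within ob/ob livers, the 2 effects were compared by an interaction term, and the vector groups were compared with each other.

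The genes and lists were chosen with earlier results of these data known. Named whatever their p were the catalytic pairs of core and immunoproteasome, Psmd4, Psmd14, the activators, the chaperones, 11 pathway genes and Fh1; added per comparison and role were up to 2 called genes with the largest change and called genes of opposite sign to their role's median. Akirin2, Vcp and the remaining proteasome genes were named after their values were seen, and some genes of the pathway lists are not reported here. Transcript length and GC content came from GENCODE M21 by symbol, near-identical copies from blastn 2.17.0 (at least 95% identity over at least 50% of the length), and promoters from RefSeq (GRCm38.p6). Scripts used Python 3.11.15 and matplotlib 3.10.9. Only the edgeR fit was tested on simulated data, which did not carry the difference in TMM factors between FH and vector libraries. Alternatives were CPM on library totals, DESeq2 1.42.0, no filter on low counts, only the 2 groups compared, a replicate block and each library left out in turn.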

Additional observations from a re-analysis of the deposited data

Results flagged for a closer look

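Among the genes named in the text, 4 had an FH effect that differed between the models by the interaction term of the edgeR fit (ob/ob minus fasted, log2). Psme4 differed by -0.89 (adjusted p = 0.00733), and the call held without each of the 12 libraries in turn. Akirin2 differed by -0.77 (0.0331) and Ecpas by -0.63 (0.0356), and these calls were lost without any 1 of 7 and of 9 libraries. Fh1, the delivered gene, differed by 1.13 (0.0267), a call lost without any 1 of 5 libraries (0.91 to 1.20, adjusted p 0.0507 to 0.0723). In this contrast the models also differ in the sex markers of the ob/ob FH group. Over all genes 4.77% were called higher and 3.66% lower in this difference, and 10 of 12 macrophage and 10 of 10 endothelial markers were called higher in it. No test for a single outlying value was run within groups of 3.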

How the results depend on the processing

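Library totals were the setting that changed most. With them, 4 proteasome genes were called higher and 18 lower in fasted livers, 2 and 16 in ob/ob livers, and 4 and 6 between the vector groups, and among single-gene values called under at least 1 of the 2 scalings 44 turned direction. In fasted livers these log2 values included Ecpas -0.24, Pomp -0.39, Psma2 -0.44, Psma4 -0.60, Psmb1 -0.49, Psmb10 -0.081, Psmb2 -0.19, Psmb3 -0.32, Psmb4 -0.10, Psmb6 -0.165, Psmb7 -0.034, Psmb8 -0.11, Psmd13 -0.036, Psmd6 -0.42, Psmd7 -0.15, Psmd8 -0.0099, Psme2 -0.50, Psme4 -0.032, Psmg1 -0.16, Psmg2 -0.60, Uchl5 -0.28 and Usp14 -0.047. In ob/ob livers they were Adrm1 -0.16, Akirin2 -0.58, Irf1 -0.039, Pomp -0.50, Psma2 -0.60, Psma6 -0.57, Psmb1 -0.48, Psmb2 -0.23, Psmb3 -0.26, Psmb6 -0.21, Psmb7 -0.24, Psmb9 -0.13, Psmc1 -0.032, Psmd11 -0.066, Psmd12 -0.043, Psmd6 -0.61, Psmd7 -0.088, Psmd9 -0.084, Psme2 -0.19, Psme2b -0.030 and Psmg2 -0.048. The other settings turned the direction of no such value. DESeq2 called 3 genes lower in ob/ob livers and 1, Psmb9, higher in the difference, and with only the 2 groups compared 3 were lower in ob/ob livers and 4 lower between the vector groups. Psma3 and Psme4 were among the genes lower in ob/ob livers under both settings. Leaving out each library in turn gave 27 to 31 higher and 1 to 4 lower in fasted livers, 24 to 31 and 1 to 2 in ob/ob livers, 0 to 0 and 1 to 1 in the difference, and 0 to 1 and 8 to 14 between the vector groups; the fasted count of lower genes was 1 without vector replicate 1, FH replicate 1 or FH replicate 2. Of the single-gene results under these fits, 2895 kept direction and call, 104 lost the call and 25 gained it.

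The replicate numbers were not shown to pair the libraries: same-numbered libraries of different groups had correlations of -0.185 to 0.189 in their deviations from the group means. With a replicate block 2 genes were called lower in ob/ob livers, and of the single-gene results 2 gained and 2 lost their call. Depth limits Psma8, Psmb11 and Psmc3ip, at 25 counts or fewer per library.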
